A study of Mus musculus with 6 samples.

Results

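Tubulins are the building blocks of microtubules, and 10 tubulin genes were followed here in mouse livers injured with carbon tetrachloride (CCl4). They are the 5 alpha-tubulin genes *Tuba1a*, *Tuba1b*, *Tuba1c*, *Tuba4a* and *Tuba8* and the 5 beta-tubulin genes *Tubb2a*, *Tubb2b*, *Tubb4b*, *Tubb5* and *Tubb6*, chosen by name from the 24346 genes of the RNA-seq table, and all 10 were found. RNA came from whole livers of 6 male C57/BL6 mice that were 8 weeks old. All 6 mice had received 0.6 μl CCl4 per g body weight in sunflower oil by intraperitoneal injection, and livers were taken 24 h later. In the 3 control mice (*med23* f/f) the Mediator subunit gene *Med23* is flanked by loxP sites, and the 3 mice labelled *med23* Δli carry *Albumin*-cre in addition. The study describes this deletion as specific to hepatocytes, so the other cells of the liver are taken to keep *Med23*. The data here do not separate cell types, and no liver without CCl4 is among the samples. The comparison asks which tubulin transcripts differ between injured livers of the 2 labelled groups.

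Values are FPKM, fragment counts scaled to the length of the transcript and to the library, so levels of different genes are given per length. The table holds no read counts, so the error given is the spread over the 3 mice per group. Each library listed 7628 to 9341 genes at 0, and the 10 most abundant genes took 17.1% to 20.3% of the summed FPKM in controls and 11.9% to 13.7% in the other group, a difference in composition between the groups whose part in the results was not tested. *Med23* itself, the targeted gene, had 3.42, 2.97 and 4.14 FPKM in controls and 3.40, 3.40 and 2.91 FPKM in those labelled *med23* Δli. Its level over all exons and all liver cells therefore did not tell the groups apart (log2 fold change −0.11 ± 0.17 (SE), adjusted p = 0.685, limma), and livers are called by their labels throughout. Of the cell type markers examined, all 9 endothelial genes fell in the livers labelled *med23* Δli, and their summed level was 93.4 to 133 FPKM in controls and 50.9 to 54.7 FPKM in the other group. The summed hepatocyte markers lay at 33520 to 43533 FPKM and at 28266 to 34964 FPKM. In whole-liver RNA, fewer cells of a type and less RNA per cell cannot be told apart.

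Alpha- and beta-tubulin form a heterodimer, and heterodimers join end to end and side by side into the hollow wall of the microtubule. In hepatocytes microtubules carry secretory vesicles and endosomes between the sinusoidal and the canalicular surface, and in dividing cells they form the spindle. The genes of a class encode closely related proteins that differ mostly at the acidic C-terminal tail, which projects from the microtubule, binds motors and associated proteins, and is the site of polyglutamylation and of tyrosine removal and re-addition. Tubulin mRNAs are also controlled by the level of unpolymerized tubulin: TTC5 recognizes the first residues of nascent tubulin and starts decay of the mRNA.

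The ends of 6 coding sequences are shown because the tail is where the isotypes differ. Each line gives the last 20 sense codons and the stop codon (63 bases, 5′ to 3′, GENCODE M21 transcripts), with the last sense codon in capitals.
*Tuba4a*: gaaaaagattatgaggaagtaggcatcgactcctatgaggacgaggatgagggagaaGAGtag
*Tuba8*: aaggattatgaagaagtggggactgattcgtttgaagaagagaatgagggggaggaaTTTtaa
*Tubb2a*: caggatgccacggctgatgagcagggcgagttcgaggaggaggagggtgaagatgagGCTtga
*Tubb2b*: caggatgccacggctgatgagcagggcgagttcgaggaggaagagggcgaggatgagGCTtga
*Tubb4b*: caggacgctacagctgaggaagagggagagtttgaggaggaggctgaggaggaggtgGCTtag
*Tubb5*: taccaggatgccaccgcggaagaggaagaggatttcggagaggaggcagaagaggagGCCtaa
*Tuba4a* ends in a glutamate codon and *Tuba8* in a phenylalanine codon, so neither encodes the final tyrosine that can be removed and put back. The 4 beta-tubulin genes shown end in an alanine codon.

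Some members are so alike that reads can be assigned to either. *Tuba1a* and *Tuba1b* shared 98.3% of their coding bases, *Tuba1b* and *Tuba1c* 97.9%, and *Tubb2a* and *Tubb2b* 96.5%, whereas *Tuba8* shared 79.5% to 81.4% with the other alpha members. Of all stretches of 150 bases (the read length) in the transcript, 54.7% for *Tuba1a*, 57.9% for *Tuba1b* and 46.7% for *Tuba1c* were also found in a transcript of another gene, among them one another and *Gm49450*, an annotated gene that overlaps *Tuba1a* and *Tuba1b* on the same strand. For *Tubb2a* this share was 27.9% and for *Tubb2b* 20.1%, shared with one another and with *Tubb2a-ps2*. For *Tubb4b* it was 16.8%, shared with *Tubb4b-ps1* (40.9% for stretches of 75 bases, shared also with *Tubb4b-ps2*, *Gm16165* and *Fam166a*), and for *Tubb5* and *Tubb6* it was 0%. *Tuba4a* shared 45.7%, none of it coding, with *Stk16* on the opposite strand, and *Tuba8* shared 10.5% with its antisense gene *Gm15856*. Since the strand setting of the authors' counting is not given in the sources used here, reads of *Tuba4a* and *Stk16*, of *Tuba8* and *Gm15856*, of *Tuba1b* and its antisense gene *Gm41396*, and of *Tubb4b* and *Fam166a* cannot be told apart where these overlap. The split among *Tuba1a*, *Tuba1b* and *Tuba1c*, and between *Tubb2a* and *Tubb2b*, is uncertain because of the shared stretches, as the sources used here do not state how reads that fit several genes were assigned.

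The genes lie apart in the genome except for 2 groups (mm10). *Tuba1b* (98931425 to 98934565, minus strand), *Tuba1a* (98949837 to 98953703, minus strand) and *Tuba1c* (99029891 to 99038110, plus strand) are neighbours on chromosome 15. *Tubb2a* (34074274 to 34078007) and *Tubb2b* (34126748 to 34130466) are neighbours on the minus strand of chromosome 13. *Tuba4a* is on chromosome 1 (75214228 to 75219865, minus strand), *Tuba8* on chromosome 6 (121210696 to 121226854, plus strand), *Tubb4b* on chromosome 2 (25222160 to 25224702, minus strand), *Tubb5* on chromosome 17 (35833921 to 35838306, minus strand) and *Tubb6* on chromosome 18.

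*Tubb2a* was the most abundant tubulin transcript of every liver, and together with *Tuba8* it was lower in the livers labelled *med23* Δli. These were the 2 members that fell past an adjusted p of 0.05 (limma on log2(FPKM + 0.1), Benjamini-Hochberg adjustment over the 11956 genes tested), and 0 members rose. Over all genes tested, 9.48% fell and 11.6% rose by the same rule. At an unadjusted p under 0.05 were 7 of the 10 members and 37.6% of all genes. Where a 2-fold change was required in addition, 1 member (*Tuba8*) fell and 0 rose, beside 3.45% and 4.45% of all genes. The median log2 fold change of the 10 members was −0.23, and that of all genes tested was 0.02. In 4 members all 3 values of the livers labelled *med23* Δli lay below all control values, and in 2 members above, where 20.4% and 23.3% of all genes did. With 3 livers against 3, an exact two-sided permutation test of a single gene cannot give a p below 0.1.

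**Figure D1:**
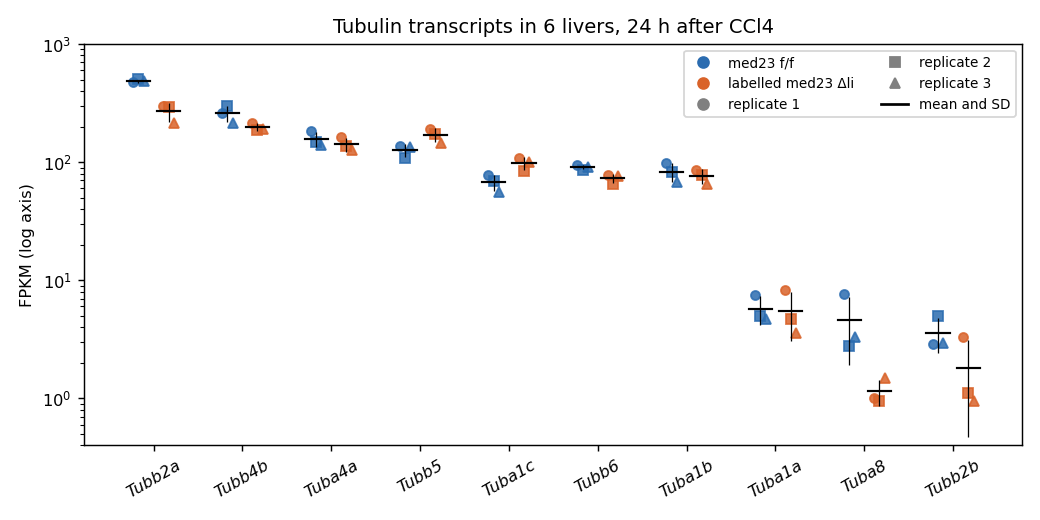
FPKM (log axis) of the 10 tubulin genes in the 3 *med23* f/f livers (blue) and the 3 livers labelled *med23* Δli (orange); the marker shape gives the replicate number, and the black bars give the mean and SD. *Tubb2a* sits between 472.7 and 501 FPKM in controls and between 213 and 298 FPKM in the other group, and *Tuba1a*, *Tuba8* and *Tubb2b* lie below 10 FPKM in every liver.

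*Tubb2a*, a beta isotype found in many tissues, had 473, 501 and 482 FPKM in controls and 298, 295 and 213 FPKM in the group labelled *med23* Δli. The groups did not overlap, and the 3 controls lay within a narrow band. The mean decreased by 44.6%, from 485 ± 14.4 to 269 ± 48.2 FPKM (SD, n = 3 each), and the log2 fold change was −0.87 ± 0.16 (SE, adjusted p = 0.0119, limma). *Tubb2b*, the near-identical neighbour that is best known from migrating neurons, was far less abundant, at 2.89, 4.94 and 2.96 FPKM in controls and 3.31, 1.11 and 0.950 FPKM in the other group. Its values overlapped between the groups through *med23* Δli replicate 1, and the log2 fold change of −1.14 ± 0.44 (SE) did not pass the test (adjusted p = 0.103, limma). Without that liver it was −1.67 with an adjusted p of 0.0268, past both thresholds, in the same setting in which *Tuba8* no longer passed. Summed over both genes, which removes the uncertain split between them, the level was 476, 506 and 485 FPKM in controls and 302, 296 and 214 FPKM in the other group, a difference of −44.7% between the means. Without replicate 1 of both groups, an alternative chosen after seeing the data that leaves 2 livers a group, the log2 fold change of *Tubb2a* was −0.97 with an adjusted p of 0.0878 (limma).

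*Tuba8*, a divergent alpha isotype known from heart, skeletal muscle and testis, had 7.66, 2.77 and 3.32 FPKM in controls and 1.00, 0.950 and 1.48 FPKM in the group labelled *med23* Δli. All 3 controls lay above the other group, and control replicate 1 lay far above the remaining controls. The mean decreased by 75.1%, from 4.58 ± 2.68 to 1.14 ± 0.290 FPKM (SD, n = 3 each), and the log2 fold change was −1.79 ± 0.37 (SE, adjusted p = 0.0161, limma). The adjusted p was 0.0605 without *med23* Δli replicate 1, 0.0574 without *med23* Δli replicate 2 and 0.0894 without replicate 1 of both groups, where the log2 fold change was −1.29. Skeletal muscle markers were near 0 in both groups, with sums of 0.431 to 1.33 FPKM in controls and 0.435 to 0.985 FPKM in the other group, and the myosin genes *Myh1*, *Myh2* and *Myh4* were listed at 0 in every liver. No heart or testis markers were examined, and the part of any such tissue in the *Tuba8* level was not tested.

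**Figure D2:**
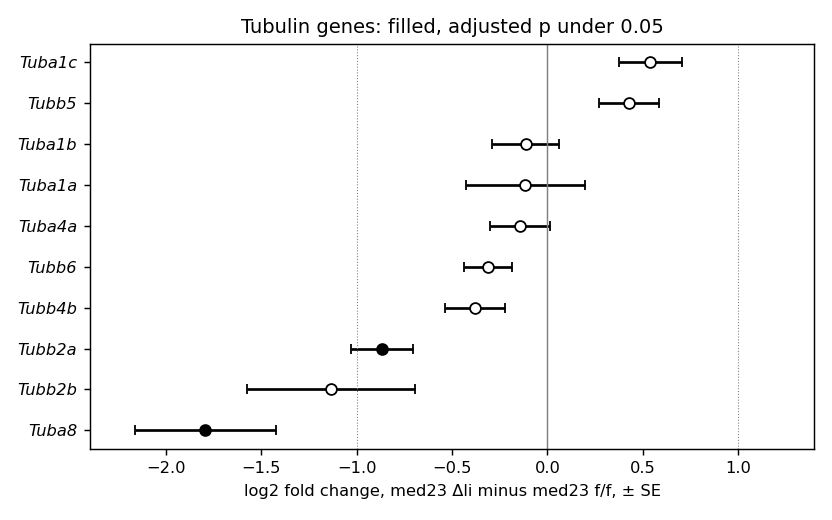
Log2 fold change (livers labelled *med23* Δli minus *med23* f/f, x axis) of each tubulin gene with its standard error; filled points passed an adjusted p of 0.05 and dotted lines mark a 2-fold change. *Tuba8* (−1.79) and *Tubb2a* (−0.87) are filled, and *Tuba1c* (0.54) and *Tubb5* (0.43) lie to the right of 0.

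The sequences just before the annotated starts of these 2 genes are shown, as the members that fell; 8 of the 10 members had a RefSeq promoter entry. The letters searched on both strands were CCAAT, bound by the factor NF-Y, then GGGCGG, the box of the Sp factors, then TATAAA, the core of the box bound by the TBP protein, and AGGTCA, the half-site of nuclear receptors. Matches are in capitals. Each line reads 5′ to 3′ on the strand of the gene (RefSeq, GRCm38.p6) and holds 150 bases for *Tubb2a* and, since bases inside the GENCODE gene were left out, 112 for *Tuba8*.
*Tubb2a*, chr13:34078009-34078158, minus strand: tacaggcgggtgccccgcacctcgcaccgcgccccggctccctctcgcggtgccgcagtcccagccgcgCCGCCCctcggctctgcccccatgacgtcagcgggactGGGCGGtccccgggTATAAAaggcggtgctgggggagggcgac
*Tuba8*, chr6:121210584-121210695, plus strand: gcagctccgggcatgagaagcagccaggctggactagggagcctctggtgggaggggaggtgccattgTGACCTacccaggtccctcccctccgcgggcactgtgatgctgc
*Tubb2a* held GGGCGG at 2 places (once read from the other strand as CCGCCC) and TATAAA at 1, and *Tuba8* held AGGTCA at 1 place (read as TGACCT) and none of the others. Over the 250 bases before the start, a longer window than the stretches shown, 32.7% of 32851 mouse promoters held GGGCGG, 12.4% TATAAA, 14.0% AGGTCA and 33.8% CCAAT. In that window GGGCGG was also found for *Tuba1a*, *Tuba1b*, *Tuba4a* and *Tubb4b*, which did not pass the adjusted p. These are matches of letters in a window, and no binding was measured here.

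*Tuba1c* and *Tubb5* were the 2 members whose values all lay above the controls, although neither passed the test. *Tuba1c*, an alpha isotype of many cell types, had 77.3, 68.8 and 56.0 FPKM in controls and 108, 84.7 and 100.4 FPKM in the group labelled *med23* Δli. Its log2 fold change was 0.54 ± 0.16 (SE) with an adjusted p of 0.0523 (limma), just outside the threshold, and the adjusted p was 0.0477 without control replicate 1. *Tubb5*, the class I beta-tubulin that proliferating cells use, had 136, 108.5 and 135 FPKM in controls and 191, 175 and 146 FPKM in the other group. The log2 fold change was 0.43 ± 0.16 (SE), with an adjusted p of 0.0889 (limma).

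*Tubb4b* and *Tubb6* were lower without overlap between the groups, also without passing the test. *Tubb4b*, a widespread beta isotype that is also used in cilia, had 259, 300.3 and 216 FPKM in controls and 215, 187 and 189.9 FPKM in the other group (log2 fold change −0.38 ± 0.16 (SE), adjusted p = 0.118, limma). *Tubb6*, a class V beta isotype, had 94.8, 86.4 and 91.6 FPKM in controls and 77.7, 65.9 and 76.6 FPKM in the other group. Its log2 fold change of −0.31 ± 0.13 (SE) had an adjusted p of 0.115 (limma). After quantile normalization both passed, with adjusted p-values of 0.0429 and 0.0494 (limma), and *Tubb4b* also passed without control replicate 3 (log2 fold change −0.50, adjusted p = 0.0404, limma).

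*Tuba1a*, *Tuba1b* and *Tuba4a* overlapped between the groups. *Tuba4a*, the most abundant alpha member, had 182, 148 and 139 FPKM in controls and 162, 137 and 126 FPKM in the group labelled *med23* Δli (log2 fold change −0.14 ± 0.16 (SE), adjusted p = 0.538, limma). *Tuba1b*, a housekeeping alpha isotype, had 97.5, 82.7 and 68.1 FPKM in controls and 85.9, 77.6 and 64.9 FPKM in the other group. Its log2 fold change was −0.11 ± 0.18 (SE), and 0.012 without control replicate 1 (adjusted p = 0.664 over all livers, limma). *Tuba1a*, the main alpha isotype of neurons, had 7.54, 4.99 and 4.73 FPKM in controls and 8.27, 4.72 and 3.57 FPKM in the other group, a log2 fold change of −0.12 ± 0.31 (SE, adjusted p = 0.815, limma) whose sign turned without control replicate 1 (0.09) or *med23* Δli replicate 3 (0.15).

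The highest *Tuba1a* value of each group was that of replicate 1, and the summed nerve and glia markers were highest in the same 2 livers. The 8 nerve and glia markers used summed to 6.66, 1.56 and 1.63 FPKM in controls and to 11.0, 1.60 and 1.27 FPKM in the other group. *Mbp*, a myelin protein gene, had 3.56, 0.538 and 0.775 FPKM and 7.35, 0.658 and 0.451 FPKM. *Tubb4a*, a beta-tubulin gene of neurons and glia that is not among the 10, was likewise highest in replicate 1 of each group, with 0.955, 0.237 and 0.227 FPKM in controls and 1.35, 0.0337 and 0.0748 FPKM in the other group. *Tubb3*, the beta-tubulin gene used as a neuron marker, did not follow this order: it was highest in control replicate 3 (0.853 FPKM) and in *med23* Δli replicate 2 (0.238 FPKM). Of the 8 markers, *Stmn2*, near 0, also departed from it and was highest in replicate 2 of both groups. It had 0.0255, 0.0335 and 0 FPKM in controls and 0.0250, 0.0366 and 0 FPKM in the other group. The part of these cells in the *Tuba1a* level was not tested.

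**Figure D3:**
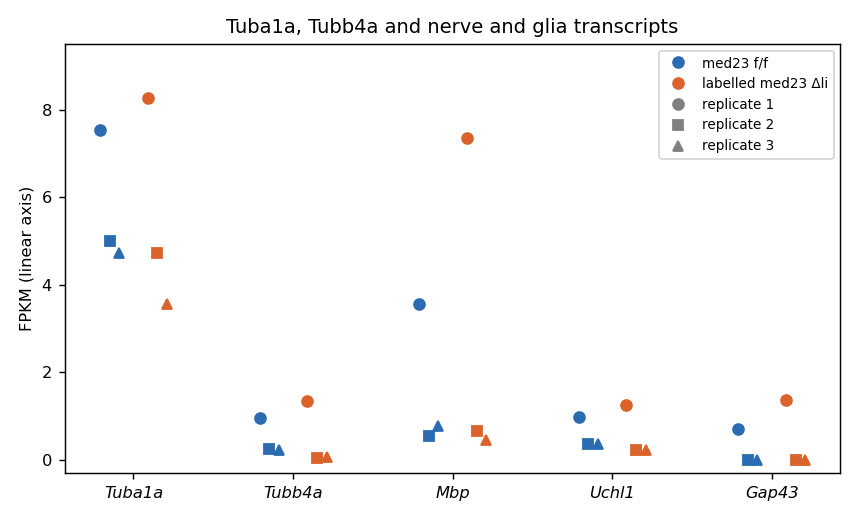
FPKM (linear axis) of *Tuba1a*, *Tubb4a* and 3 of the 8 nerve and glia markers in each liver. Colour gives the group and marker shape the replicate. The replicate 1 livers of both groups, circles, hold the highest value of each gene shown within their group, for example 3.56 and 7.35 FPKM of *Mbp*.

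Added up, the beta-tubulin levels of the groups did not overlap, and the alpha-tubulin levels did. The 10 members summed to 1338, 1309 and 1200 FPKM in controls and to 1150, 1028 and 923 FPKM in the group labelled *med23* Δli, a difference of −19.4% between the means and no overlap. The beta members summed to 966, 1001 and 928 FPKM in controls and to 785, 723 and 627 FPKM in the other group, a difference of −26.3%, also without overlap. Without *Tubb2a* the beta members differed by −7.70%, with overlapping values. The alpha members summed to 372, 308 and 271 FPKM and to 365, 305 and 296 FPKM, with overlapping values. Their means differed by 1.57%, a difference without a stable sign, as leaving out control replicate 3 gave −5.23%, leaving out control replicate 1 gave 11.2%, and leaving out *med23* Δli replicate 1 gave −5.21%. Summed over *Tuba1a*, *Tuba1b* and *Tuba1c*, the level was 182, 157 and 129 FPKM in controls and 202, 167 and 169 FPKM in the other group, which overlapped. The ratio of beta to alpha transcripts was 2.60, 3.25 and 3.42 in controls and 2.15, 2.37 and 2.12 in the other group, so all 3 livers labelled *med23* Δli lay below the controls. These sums are descriptions of transcript levels and were given no test beyond that of their members.

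Within each class, the share held by *Tubb5* and by *Tuba1c* was higher without overlap between the groups, and that held by *Tubb2a*, *Tuba4a* and *Tuba8* lower. By their levels, 23.3% of all genes were higher and 20.4% lower without overlap, so such a count says nothing particular about the tubulins. The shares of a class add up to a fixed total, so that one share falls where another rises. *Tubb2a* made up 48.9%, 50.0% and 52.0% of the beta-tubulin FPKM in controls and 38.0%, 40.8% and 34.0% in the livers labelled *med23* Δli. *Tubb5* made up 14.1%, 10.8% and 14.6% in controls and 24.3%, 24.1% and 23.4% in the other group. *Tubb4b* held between 23.3% and 30.3% of beta-tubulin FPKM in all 6 livers. *Tuba1c* made up 20.8%, 22.4% and 20.6% of the alpha-tubulin FPKM in controls and 29.5%, 27.8% and 33.9% in the other group. *Tuba4a* made up 48.9%, 48.2% and 51.3% in controls and 44.4%, 44.8% and 42.5% in the other group, although its own levels overlapped (adjusted p = 0.538, limma). *Tuba8* made up 0.901% to 2.06% in controls and 0.275% to 0.498% in the other group. The shares of *Tuba1a*, *Tuba1b*, *Tubb2b*, *Tubb4b* and *Tubb6* overlapped.

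**Figure D4:**
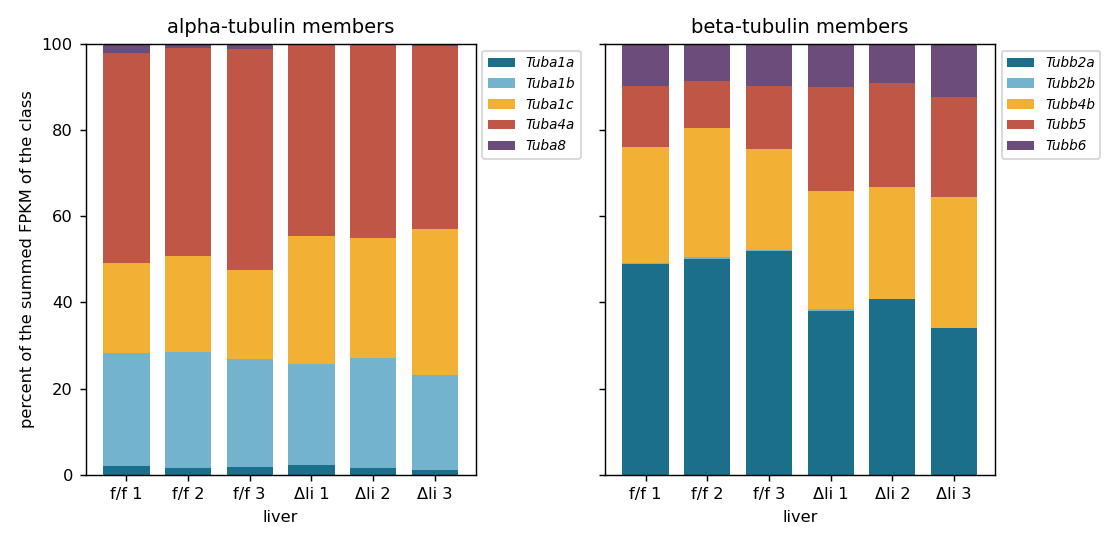
Share of each gene in the summed FPKM of its class (y axis, percent), for the 5 alpha-tubulin genes on the left and the 5 beta-tubulin genes on the right, with 1 bar for each liver. *Tubb2a* takes 48.9% to 52.0% of the control bars and 34.0% to 40.8% of the others, *Tubb5* takes 10.8% to 14.6% and 23.4% to 24.3%, and *Tuba1c* takes 20.6% to 22.4% and 27.8% to 33.9%.

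In controls the order of levels was *Tubb2a*, *Tubb4b*, *Tuba4a*, *Tubb5*, *Tubb6*, *Tuba1b*, *Tuba1c*, *Tuba1a*, *Tuba8* and *Tubb2b*. Each of the first 5 lay above the next in all 3 control livers except *Tubb6*, whose range overlapped that of *Tuba1b*. The ranges of *Tuba1b* and *Tuba1c* also overlapped, as did those of *Tuba1a* and *Tuba8* and of *Tuba8* and *Tubb2b*. In the livers labelled *med23* Δli the order was *Tubb2a*, *Tubb4b*, *Tubb5*, *Tuba4a*, *Tuba1c*, *Tuba1b*, *Tubb6*, *Tuba1a*, *Tubb2b* and *Tuba8*. There the ranges of *Tubb2a* and *Tubb4b* overlapped, as did those of *Tubb4b* and *Tubb5*, of *Tubb5* and *Tuba4a*, of *Tuba1c*, *Tuba1b* and *Tubb6* in turn, and of *Tubb2b* and *Tuba8*, though within each liver *Tubb2a* lay above *Tubb4b*. *Tubb5* lay below *Tuba4a* in all 3 controls and above it in all 3 livers of the other group.

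Most other tubulin genes lay at low levels, but *Tubg1* lay above the members *Tuba1a*, *Tuba8* and *Tubb2b*. Of the 10 further genes of the superfamily examined, only *Tubg1*, the gamma-tubulin gene that seeds microtubules at the centrosome, and *Tubd1*, a delta-tubulin gene, reached a mean of 0.5 FPKM. *Tubg1* had 28.8, 23.0 and 18.8 FPKM in controls and 25.4, 21.3 and 23.2 FPKM in the group labelled *med23* Δli, which overlapped. *Tubd1* had 2.16, 3.02 and 2.35 FPKM in controls and 1.84, 2.02 and 1.89 FPKM in the other group, which did not overlap, with a log2 fold change of −0.36 ± 0.18 (SE) that did not pass the test. *Tubb3* had 0.735, 0.303 and 0.853 FPKM in controls and 0.178, 0.238 and 0.0527 FPKM in the other group, and lay under the filter. *Tube1* lay between 0.333 and 0.697 FPKM, *Tubg2* between 0 and 0.168 FPKM and *Tubb1*, the platelet beta-tubulin gene, between 0 and 0.0464 FPKM. *Tuba3a*, *Tuba3b* and *Tubal3* were listed at 0 in every liver.

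Genes that fold tubulin or bind microtubules were examined from lists, of which 114 of 162 genes passed the filter, the other tubulin genes included, and 22 rose and 9 fell past the adjusted p. In shares these are 19.3% and 7.89%, beside 11.6% and 9.48% of all genes. Many of these calls were lost when a liver labelled *med23* Δli was left out: without its replicate 1, 2 or 3 the genes that rose numbered 1, 3 and 5 and those that fell 2, 3 and 3, and over all genes the calls upward went from 1384 to 401, 487 and 578 and those downward from 1133 to 349, 442 and 412. Without control replicate 1, 2 or 3 the list genes that rose numbered 17, 13 and 21 and those that fell 5, 6 and 9, and over all genes 1125, 1046 and 1750 rose and 811, 749 and 1429 fell. *Kif3a*, *Clip2* and *Camsap3* were the list genes that passed with each of the 6 libraries left out. Without replicate 1 of both groups, 0 list genes passed in either direction (limma), and over all genes 112 rose and 52 fell, with 2868 at an unadjusted p under 0.05. Apart from *Ttc5*, genes named in the lists that changed by less than 2-fold or were not tested were chosen after their values were seen.

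The tubulin folding list, the TRiC chaperonin that closes around nascent tubulin, its helper prefoldin and the cofactors that assemble the heterodimer, had 7 of 22 genes that rose and 2 that fell. In shares these are 31.8% and 9.09%, beside 11.6% and 9.48% of all genes. Without *med23* Δli replicate 1 or 2, 0 genes of the list rose, and 3 rose without replicate 3 of that group and 4 with the replicate block. Without *med23* Δli replicate 1, 0 genes of the list fell (limma). Its median log2 fold change was 0.29, beside 0.02 over all genes. The chaperonin subunit genes *Tcp1*, *Cct2*, *Cct4*, *Cct5* and *Cct7* rose by 0.50 to 0.85 on the log2 scale. *Cct4* rose the most of these, from 105, 73.8 and 98.0 FPKM to 167, 173 and 155 FPKM (adjusted p = 0.0123, limma). The chaperonin genes *Cct3*, *Cct6a* and *Cct8* did not pass, with log2 fold changes of 0.05, 0.42 and 0.41 (adjusted p = 0.816, 0.0892 and 0.105, limma). *Pfdn1*, a prefoldin subunit gene, rose by 0.58. Of the other prefoldin genes, *Pfdn5* and *Pfdn6* were higher (log2 fold changes 0.40 and 0.41) and *Pfdn2* and *Pfdn4* lower (−0.49 and −0.40). These did not overlap between the groups but did not pass, and *Vbp1* overlapped. *Tbcd*, which holds beta-tubulin during heterodimer assembly, rose by 0.78. *Tbcc*, which completes that assembly, fell by 0.95, from 13.3, 17.8 and 19.1 FPKM to 8.51, 9.71 and 7.48 FPKM (adjusted p = 0.0114, limma). *Arl2*, a small GTPase that works with these cofactors, fell by 0.76 on the log2 scale (adjusted p = 0.0277, limma). With 1 library left out, *Tbcc* passed in 5 of 6 fits, *Cct4*, *Cct7* and *Tbcd* in 4, *Cct5* in 3, *Cct2* and *Arl2* in 2, and *Tcp1* and *Pfdn1* in 1.

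*Ttc5*, which starts decay of tubulin mRNA on the ribosome, fell. It had 8.02, 11.1 and 8.31 FPKM in controls and 6.34, 6.32 and 4.66 FPKM in the group labelled *med23* Δli, without overlap, and a log2 fold change of −0.65 ± 0.19 (SE, adjusted p = 0.0444, limma). The call passed in 1 of the 6 fits that left out a library, that without control replicate 3, and the highest adjusted p of these fits was 0.135 (limma). It was also lost without a filter on low values, without the trend and with the replicate block. The gene was chosen as a list of 1 for this role. The protein reads the start of the nascent chain, and the coding sequences open with the following 12 bases, shown for *Tubb2a* and *Tubb5* as abundant members whose groups did not overlap. The second codon is an arginine codon in all 10 members.
*Tubb2a* start: atgcgcgagatc
*Tubb5* start: atgagggaaatc
*Tubb2a* and *Tubb5* use different codons for that arginine.

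Of 17 tested tubulin modification genes 2 rose, or 11.8% beside 11.6% of all genes, and 0 fell, with a median log2 fold change of 0.11. Without any one of the 3 livers labelled *med23* Δli, 0 of them rose (limma). *Ttll7*, a polyglutamylase that acts on beta-tubulin tails, rose from 0.337, 0.188 and 0.370 FPKM to 0.984, 0.786 and 0.947 FPKM, a log2 fold change of 1.36 ± 0.31 (SE, adjusted p = 0.0208, limma) at low levels, and it passed in 3 of the 6 fits that left out a library. *Atat1*, which acetylates alpha-tubulin inside the microtubule, rose from 4.31, 4.27 and 5.39 FPKM to 8.51, 7.28 and 6.95 FPKM (log2 fold change 0.69, adjusted p = 0.0203, limma), and passed in 2 of these 6 fits and not with the replicate block. *Hdac6*, which removes that acetyl group, had 7.54, 6.63 and 7.40 FPKM and 8.27, 8.83 and 6.61 FPKM, which overlapped. *Ttl*, which puts the final tyrosine back, and *Svbp*, the partner of the enzymes that remove it, had log2 fold changes of −0.08 ± 0.20 and −0.15 ± 0.16 (SE).

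Among 19 tested genes of microtubule stability, 5 fell and 2 rose, with a median log2 fold change of 0.00. In shares these are 26.3% and 10.5%, beside 9.48% and 11.6% of all genes. With 1 library left out, 2 to 3 fell and 0 to 4 rose, and 0 rose without any one of the livers labelled *med23* Δli (limma). *Stmn1*, which binds free tubulin heterodimers and destabilizes microtubules, rose from 12.5, 6.72 and 8.40 FPKM to 24.4, 15.2 and 16.6 FPKM (log2 fold change 1.03 ± 0.26 (SE), adjusted p = 0.0305, limma), without overlap, and passed in 2 of the 6 fits that left out a library. *Clip2*, a protein of growing microtubule ends, fell from 3.43, 2.94 and 2.68 FPKM to 1.26, 1.47 and 1.18 FPKM (log2 fold change −1.15 ± 0.18 (SE), adjusted p = 0.00704, limma). *Tppp*, which bundles microtubules, fell from 3.04, 1.48 and 5.63 FPKM to 0.915, 1.18 and 0.832 FPKM (log2 fold change −1.52 ± 0.43 (SE), adjusted p = 0.0408, limma) and passed in 1 of these 6 fits. *Camsap3*, which protects minus ends in epithelial cells, fell by 0.81 on the log2 scale, and the plus-end genes *Mapre2* and *Mapre3* fell by 0.46 and 0.68, while *Clip1*, another plus-end gene, rose by 0.60. *Camsap3* passed in all 6 fits that left out a library, *Clip1* in 3, *Mapre3* in 2 and *Mapre2* in 0, where the lowest adjusted p was 0.0574 (limma).

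The transport motor list had 7 of 28 genes that rose and 1 that fell, with a median log2 fold change of 0.24. In shares these are 25% and 3.57%, beside 11.6% and 9.48% of all genes. *Kif3a*, a motor subunit of kinesin-2 that serves cilia and vesicles, rose from 1.47, 1.61 and 1.65 FPKM to 3.29, 3.37 and 3.53 FPKM (log2 fold change 1.06 ± 0.15 (SE), adjusted p = 0.00538, limma), and its partner *Kifap3* rose by 0.75. *Kifc3*, a minus-end directed kinesin, fell from 28.0, 33.4 and 14.1 FPKM to 9.77, 7.65 and 9.21 FPKM (log2 fold change −1.41 ± 0.30 (SE), adjusted p = 0.0175, limma) and passed in 2 of the 6 fits that left out a library. *Dync1h1*, the heavy chain of cytoplasmic dynein, the dynactin genes *Dctn2* and *Dctn3*, the kinesin light chain gene *Klc2* and *Kif16b*, a kinesin of endosomes, rose by 0.45 to 0.72 on the log2 scale. Of these, *Dync1h1* and *Klc2* passed in 2 of the 6 fits that left out a library, *Dctn3* and *Kif16b* in 1 and *Dctn2* in 0, and *Kifap3* passed in 1. The list had 1 gene that rose without *med23* Δli replicate 1 or 2, 2 without replicate 3 of that group and 1 with the replicate block. It had 2 that rose without control replicate 1, 3 without control replicate 2, 6 without control replicate 3 and 2 without a filter on low values (limma).

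The nucleation, severing and mitotic lists were short, and the shares of their tested genes that rose were 20%, 14.3% and 12.5%, beside 11.6% of all genes. In the gamma-tubulin ring complex list 2 of 10 genes rose, *Tubgcp4* by 0.76 and *Mzt1* by 0.64 on the log2 scale, and 0 fell. In the severing list 1 of 7 tested genes rose, *Kif2a*, a kinesin that depolymerizes microtubule ends, by 0.78. *Tubgcp4* passed in 4 of the 6 fits that left out a library, and *Mzt1* and *Kif2a* in 3. Of 26 mitotic genes only 8 passed the filter, and no mitotic gene exceeded 2.05 FPKM in any liver. *Prc1*, a crosslinker of the spindle midzone, rose from 0.374, 0.246 and 0.388 FPKM to 0.902, 0.586 and 1.19 FPKM (log2 fold change 1.16 ± 0.33 (SE), adjusted p = 0.0447, limma). This call passed in 1 of the 5 fits that left out a library and still tested the gene, it was lost without a filter on low values and with the replicate block, and *Prc1* did not reach a filter at 1 FPKM. The proliferation marker *Mki67* lay between 0.0403 and 0.406 FPKM.

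**Figure D5:**
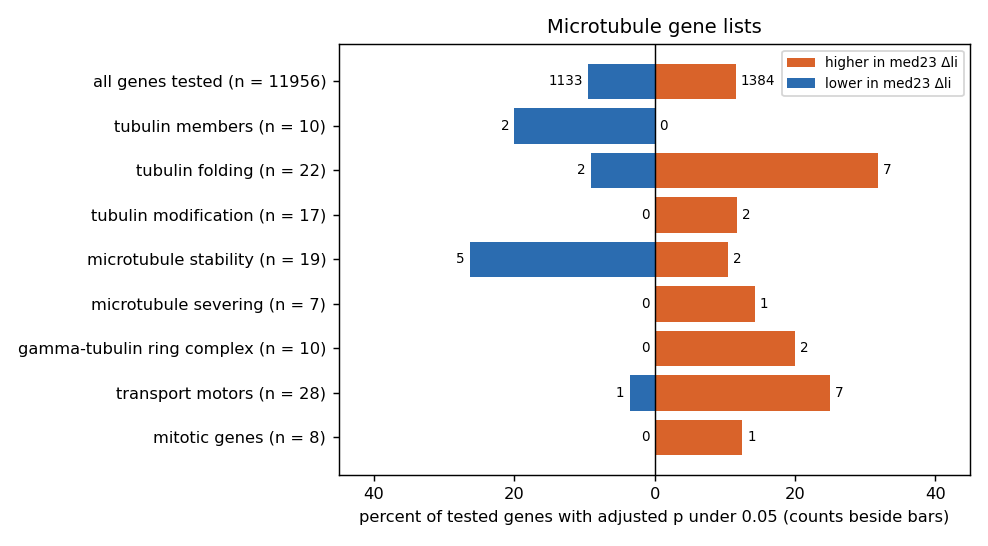
Percent of the tested genes of each list (x axis) that passed an adjusted p of 0.05, with higher values in the livers labelled *med23* Δli to the right (orange) and lower values to the left (blue); the numbers beside the bars are counts, and the top bar is all 11956 genes tested. The tubulin members show 2 genes lower and 0 higher, and the folding list shows 7 higher and 2 lower.

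The other cell type markers were read beside these results. Of the tested markers, 1 of 11 hepatocyte genes rose and 1 fell, 1 of 11 macrophage genes and 2 of 9 stellate genes fell, and 0 of 7 cholangiocyte and 0 of 5 neutrophil genes passed in either direction. In the erythroid and platelet list 1 of 6 rose and 1 fell, in the adipocyte list 1 of 5 fell, no lymphocyte gene passed the filter on low values, and 0 of the 2 nerve and glia genes and of the 1 skeletal muscle gene tested passed. Of the endothelial markers, *Kdr* had 4.96, 4.97 and 4.91 FPKM in controls and 2.54, 2.38 and 2.22 FPKM in the other group. *Tubb2a*, *Tuba8*, *Clip2* and *Tppp* fell in the same livers, as did every gene called lower, 9.48% of all genes tested. The part of endothelial cells in these results was not tested.

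For the member with the highest and the member with the lowest fold change, the genes with the most similar pattern over the 6 livers were listed by Pearson's r of log2(FPKM + 0.1). For *Tuba1c* these were *Nutf2-ps1* (0.994), *D19Bwg1357e* (0.993), *Prmt2* (0.991), *AU040320* (0.988) and *Chid1* (0.987). For *Tuba8* they were *Stat2* (0.994), *Dopey2* (0.992), *Mrps31* (0.990), *Ahdc1* (0.987) and *Acly* (0.984). These are descriptions over 6 points from 2 groups, picked as the highest among the tested genes that are not members.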

How the data were processed

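RNA-seq of 6 whole livers was used, 3 *med23* f/f and 3 labelled *med23* Δli, grouped by their labels, with 1 mouse a library. Per the study's methods, the authors aligned trimmed read pairs to mm10 (TopHat) and quantified genes with Cuffdiff; versions, annotation and options are not given in the sources used here. The deposited table holds the authors' FPKM per gene and library, and also group values, log2 fold changes and p- and q-values from the authors' own comparison, which were not used. FPKM keeps no read counts; the study's methods give a median read number over the samples, and the depth of each library is not given in the sources used here. The number of value columns left unmapped was 0.

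The 11956 genes whose mean over the 6 libraries reached 0.5 FPKM were compared as log2(FPKM + 0.1) with limma 3.58.1 in R 4.3.3 (lmFit, eBayes with trend), with Benjamini-Hochberg adjustment over all genes tested. On this scale, changes of low genes are understated. A gene rose or fell at an adjusted p under 0.05; a second rule also asked for a log2 fold change over 1 in size. The second rule was checked on simulated data for this comparison with independent noise for each gene. Of 11956 genes, 84 of 100 changed by 1.5 on the log2 scale and 96 of 100 changed by 3 were called by it, with 3 of 11756 unchanged genes. The first rule, the adjusted p alone, was not checked in this way, nor were smaller changes. The members and lists were chosen with earlier results of these data known. All 10 members are named, of each list the genes past both rules (up to 3 each way), all other tubulin genes above 0, and the 5 genes most alike in pattern; exceptions are marked. 1 nerve and glia marker and some coding sequences are not reported here. Sequences and positions come from GENCODE M21 and RefSeq GRCm38.p6, on the assembly of mm10. Python 3.11.15, pandas 2.3.3, numpy 2.4.6 and matplotlib 3.10.9 were used for the rest. Alternatives were other pseudocounts, filters, scalings, eBayes settings, a replicate block and leaving out libraries.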

Additional observations from a re-analysis of the deposited data

How the results depend on the processing

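The fall of *Tubb2a* passed the adjusted p under every alternative planned, leaving out each library included, and missed it only without replicate 1 of both groups (an alternative chosen after seeing the data), where 0 tubulins fell past the adjusted p, 0 past both thresholds, and 0 genes of the microtubule lists passed in either direction (limma); 4 tubulins, and 24.0% of all genes, had an unadjusted p under 0.05 there. With 1 library left out, 1 to 3 tubulins fell and 0 to 1 rose past the adjusted p, and 0 to 1 fell past both thresholds, 1 and 0 of them without *med23* Δli replicate 2; without *med23* Δli replicate 1 the 2 tubulins that fell were *Tubb2a* and *Tubb2b*, not *Tuba8*, and the 3 without control replicate 3 were *Tubb2a*, *Tuba8* and *Tubb4b*; the genes of the microtubule lists that rose numbered 1 to 21 and those that fell 2 to 9. Tubulins lower without overlap numbered 4 to 7, the 7 without *med23* Δli replicate 1, and 7 without replicate 1 of both groups; over all genes 23.3% and 27.1% were lower without overlap in these settings, beside 20.4% with all libraries. After quantile normalization 4 tubulins fell and 1 was higher without overlap, and over all genes 1351 fell against 1133. *Tuba1c* rose past the adjusted p, as the 1 member that did so, after rescaling to TPM, with robust eBayes and without control replicate 1. Without a filter on low values 5 list genes fell. With 1 library left out, the log2 fold change ranged from −0.45 to 0.15 for *Tuba1a* (0.09 without control replicate 1, 0.15 without *med23* Δli replicate 3), from −0.25 to 0.012 for *Tuba1b* (0.012 without control replicate 1) and from −0.22 to 0.017 for *Med23* (0.017 without control replicate 3). The cause was not tested. With stretches of 75 bases in place of 150, the share found in another gene was 40.9% for *Tubb4b* against 16.8%, 43.2% for *Tubb2a*, 32.2% for *Tubb2b*, 56.7% to 78.3% for *Tuba1a*, *Tuba1b* and *Tuba1c*, and 0% for *Tubb5*. Replicate numbers did not pair the libraries: deviations of same-numbered libraries correlated at −0.02, −0.05 and −0.12, and no library was closest to its own number. With the replicate number as a block 8 list genes rose and 5 fell, and over all genes 809 rose and 614 fell against 1384 and 1133; *Tubb2a* and *Tuba8* still fell. The low members (*Tuba1a*, *Tuba8*, *Tubb2b*) have no read counts to give their precision: with a pseudocount of 1 or 0.01 the log2 fold change of *Tuba8* was −1.29 or −1.87.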
